A study of Arabidopsis thaliana with 6 samples.

Results

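Glucosinolates are the sulfur-rich defence compounds of the cabbage family, and the 47 Arabidopsis thaliana genes described here make them, move them and break them down. The genes were chosen by gene identifier, with no measured value in the rule but with earlier results of these data known. Of the 47, 22 belong to the aliphatic branch, 14 to the indole branch, 3 to steps that both branches share, 2 to transport and 6 to breakdown. They are 47 of the 23022 genes listed in at least 1 library. Polyadenylated RNA was sequenced from 3 libraries of the mutant 17ab and 3 libraries of wild type (WT). Both genotypes were grown upright on plates of 1/2 MS-0 medium with no stress treatment named, and whole seedlings, picked for like size, were frozen at 10 days. The labels give neither the alleles in 17ab nor the ecotype of WT, and do not say how many seedlings went into a library.

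Aliphatic glucosinolates are built from methionine, whose side chain is first lengthened, and indole glucosinolates from tryptophan. In both branches a CYP79 enzyme makes an oxime, a CYP83 enzyme activates it, and a glutathione-derived sulfur, a glucose and a sulfate group are added in turn. MYB28, MYB29 and MYB76 are the known activators of the aliphatic branch, and MYB34, MYB51 and MYB122 those of the indole branch. When tissue is crushed, myrosinases remove the glucose, and specifier proteins steer the unstable product towards nitriles instead of isothiocyanates.

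Expected counts summed to 6261789 to 6292461 per library in 17ab and to 5968854 to 6198230 in WT, so that 3 counts stand for 0.477 to 0.503 CPM (counts scaled to the library total). The genotypes lay apart on the first principal component, which carried 47.9% of the variance. Transcripts of 3 stress sensors of the endoplasmic reticulum (ER) were examined first, since the title of the series concerns the unfolded protein response. bZIP17, a membrane-anchored transcription factor, had 2.02 ± 0.104 FPKM in 17ab and 10.7 ± 0.507 FPKM in WT (mean ± SD, n = 3 each). IRE1A, an ER kinase and ribonuclease, had 3.93 ± 0.174 FPKM in 17ab and 12.3 ± 0.247 FPKM in WT (n = 3 each), and IRE1B, its paralog, had 4.95 ± 0.387 FPKM in 17ab and 8.09 ± 0.243 FPKM in WT. All 3 fell, at adjusted p values of 1.221e-06, 2.982e-06 and 0.001345 in edgeR.

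In 17ab 6 of 12 tested indole genes rose, as did the myrosinases TGG1 and TGG2 and, with a call lost in most alternative settings, PEN2, whereas 17 of 19 tested aliphatic genes did not pass the test. Of 42 members tested 13 rose and 0 fell, at an adjusted p under 0.05 in edgeR's quasi-likelihood test. Over all 17854 genes tested 7.57% rose and 6.51% fell. The members were chosen with earlier results of these data known, so their counts beside these shares are a description. By branch, 6 of 12 tested indole members rose, 2 of 19 aliphatic members, 1 of 3 shared members, 1 of 2 transporters and 3 of 6 breakdown members. The 5 members not tested, for counts too low or absent, were MYB76, AOP2, AOP3, MYB122 and CYP81F3.

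**Figure D1:**
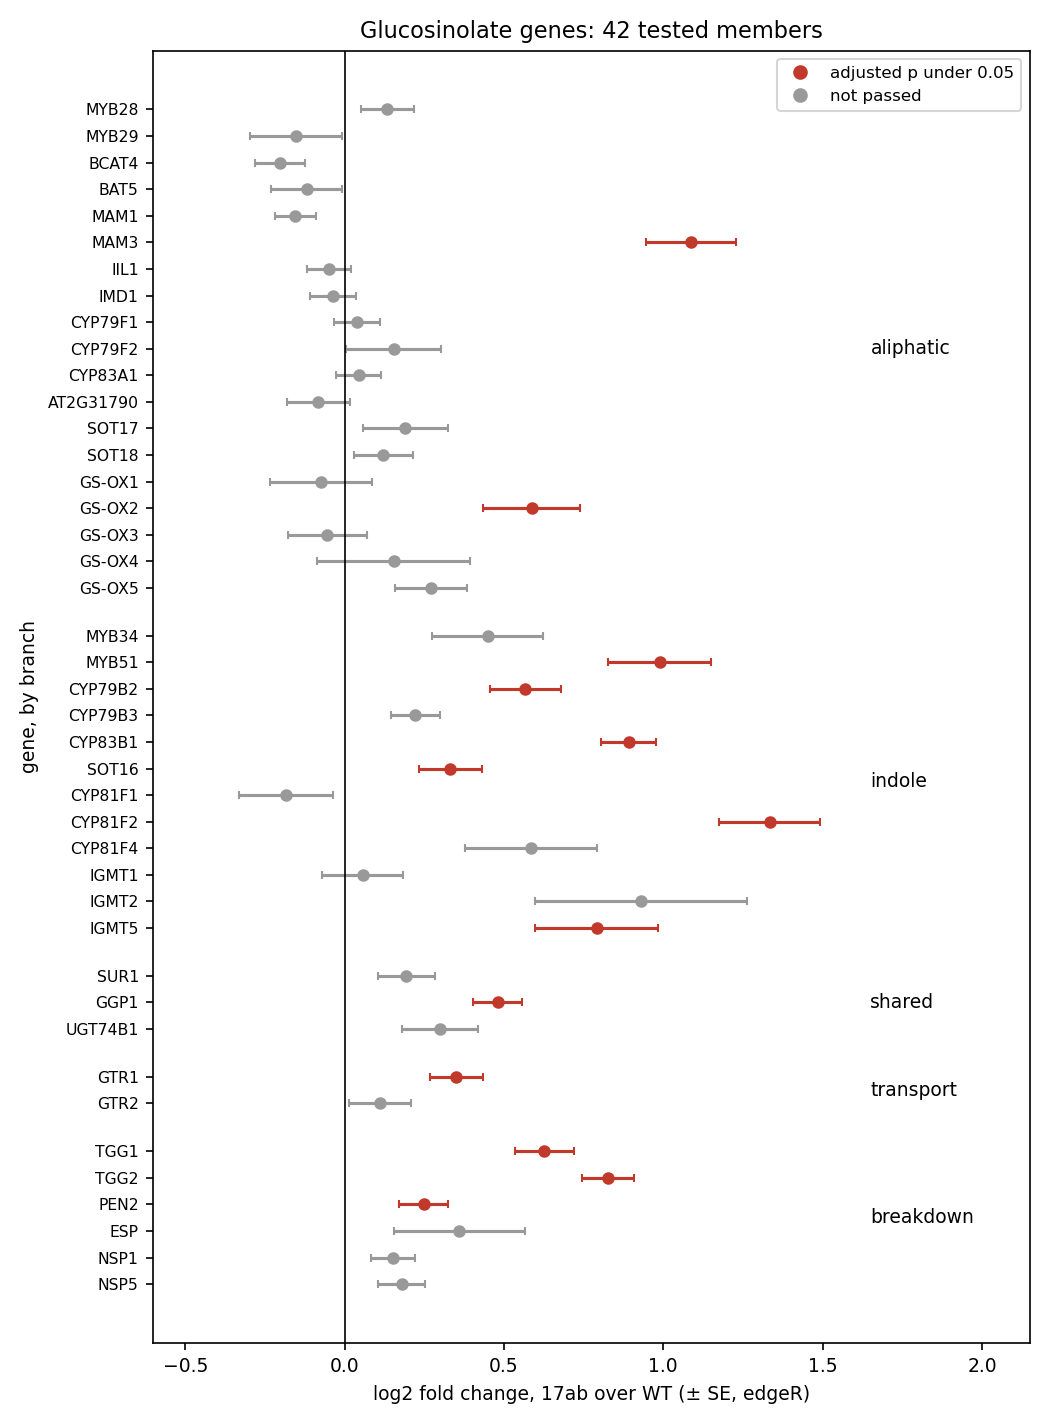
Log2 fold change of 17ab over WT (x axis, ± SE from edgeR) for each of the 42 tested genes, listed down the page by branch, with red points for an adjusted p under 0.05. Aliphatic genes lie from -0.20 to 0.27 except MAM3 at 1.09 and GS-OX2 at 0.59, and 11 of 12 indole genes lie above 0.

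The median log2 fold change was 0.58 over the 12 tested indole members and 0.04 over the 19 tested aliphatic members, beside a median of -0.002 over all genes tested. Without 17ab replicate 1 the indole median was 0.38 and the aliphatic median -0.01. Of the tested indole members 11 lay above 0, and of the tested aliphatic members 10, against 49.6% of all genes tested. In 9 of 12 indole members all 3 values of FPKM (reads scaled by gene length and library total) were higher in 17ab than in every WT library, in 3 of 19 aliphatic members they were, and in 18.2% of all genes tested. The opposite order held for 0 indole members and for 1 aliphatic member, MAM1, and for 12.9% of all genes tested.

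Summed over its 14 genes, the indole branch stood at 417.8, 362.7 and 361.5 FPKM in 17ab replicates 1 to 3, against 242.9, 252.5 and 254.8 FPKM in WT replicates 1 to 3. The groups did not overlap, and the mean in 17ab was 1.52 times that in WT. The 21 listed aliphatic genes summed to 1331, 1217 and 1182 FPKM in 17ab and to 1204, 1174 and 1307 FPKM in WT, and these groups overlapped. As a share of the aliphatic sum of the same library, the indole sum was 31.4%, 29.8% and 30.6% in 17ab and 20.2%, 21.5% and 19.5% in WT. In whole seedlings, a difference in the number of cells of a type and a difference in RNA per cell cannot be told apart.

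**Figure D2:**
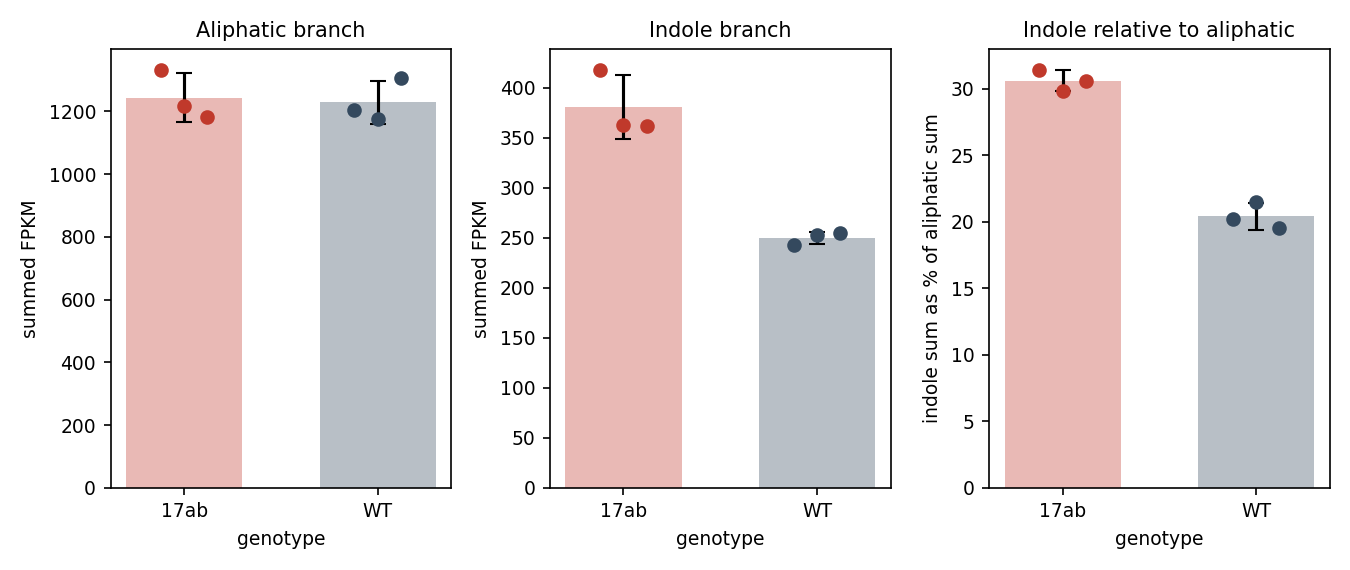
Summed FPKM of the 21 listed aliphatic genes (left), of the 14 indole genes (middle) and the indole sum as a percentage of the aliphatic sum (right), with points for single libraries, bars for the mean and error bars for the SD of 3 libraries. The indole sums of 17ab, from 361.5 to 417.8, all lie above those of WT, from 242.9 to 254.8, and the aliphatic sums overlap.

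Among the regulators of the indole branch MYB51 (AT1G18570) rose. Its transcript stood at 13.2, 21.2 and 17.8 FPKM in 17ab replicates 1 to 3, against 8.43, 8.55 and 8.88 FPKM in WT replicates 1 to 3. All 17ab libraries were above all WT libraries, whose values were close together, and the log2 fold change was 0.99 ± 0.16 (SE), at an adjusted p of 0.001481 in edgeR. MYB34 (AT5G60890) had 10.8, 7.49 and 7.43 FPKM in 17ab and 6.56, 5.43 and 6.48 FPKM in WT. Its groups did not overlap either, but the log2 fold change of 0.45 ± 0.17 missed the threshold, at an adjusted p of 0.1069 in edgeR. MYB51 was lowest in 17ab replicate 1, the library in which MYB34 was highest among the 17ab libraries. Without that library the log2 fold change of MYB34 was 0.26. MYB122 (AT1G74080) had 1 count in all in 17ab and 1 count in all in WT, under the floor of 3 counts, and no fold change is given.

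The regulators of the aliphatic branch did not pass the test. MYB28 (AT5G61420) had 43.7, 37.7 and 36.3 FPKM in 17ab, against 35.4, 34.6 and 35.6 FPKM in WT, with a log2 fold change of 0.13 ± 0.08, at an adjusted p of 0.3361 in edgeR. Its groups did not overlap but lay close together. MYB29 (AT5G07690) had 10.5, 11.5 and 8.19 FPKM in 17ab and 10.9, 10.1 and 12.1 FPKM in WT, which overlap, with a log2 fold change of -0.15 ± 0.14, at an adjusted p of 0.5487 in edgeR. MYB76 (AT5G07700) had 32 counts in all in 17ab and 27 in WT and was not tested, with 1.23, 1.6 and 1.11 FPKM in 17ab and 1.26, 1.00 and 1.17 FPKM in WT. By FPKM, MYB28 was the most abundant of the 6 regulators in both genotypes.

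The core enzymes of the indole branch rose in part. CYP83B1 (AT4G31500), which acts on the indole oxime, had 157.4, 131.4 and 126.7 FPKM in 17ab replicates 1 to 3, against 76.3, 68.6 and 74.7 FPKM in WT replicates 1 to 3. The lowest 17ab library was well above the highest WT library, and the log2 fold change was 0.89 ± 0.09, at an adjusted p of 3.781e-05 in edgeR. CYP79B2 (AT4G39950), which makes indole-3-acetaldoxime from tryptophan, had 39.4, 33.3 and 28.1 FPKM in 17ab and 21.3, 24.5 and 21.1 FPKM in WT. It rose by 0.57 ± 0.11 on the log2 scale, at an adjusted p of 0.004563 in edgeR, with no overlap between the groups. CYP79B3 (AT2G22330), which catalyses the same step, had 36.9, 41.7 and 39.5 FPKM in 17ab and 31.4, 33.5 and 34.6 FPKM in WT. These groups did not overlap, and the log2 fold change of 0.22 ± 0.08 missed the threshold, at an adjusted p of 0.07219 in edgeR. SOT16 (AT1G74100), the sulfotransferase that prefers the indole precursor, had 71.7, 55.6 and 56.8 FPKM in 17ab and 49.7, 44.5 and 49.4 FPKM in WT. Its log2 fold change of 0.33 ± 0.10 passed the test narrowly, at an adjusted p of 0.04064 in edgeR. That call was lost without WT replicate 1, 2 or 3 or 17ab replicate 1, and with DESeq2 and limma-trend.

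The core enzymes of the aliphatic branch, counterparts of the same steps, gave log2 fold changes from -0.08 to 0.19, and none of the 6 passed the edgeR test. CYP83A1 (AT4G13770), the aliphatic counterpart of CYP83B1, had 136.5, 128.8 and 125.0 FPKM in 17ab and 118.6, 118.7 and 134.0 FPKM in WT, which overlap. CYP79F1 (AT1G16410) averaged 87.8 ± 4.84 FPKM in 17ab and 83.1 ± 4.01 FPKM in WT, and CYP79F2 (AT1G16400) 19.4 ± 5.24 FPKM in 17ab and 17.1 ± 0.555 FPKM in WT (n = 3 each). Both make oximes from lengthened methionine, their coding sequences are 91.9% identical, and reads were divided between genes for both in all 6 libraries, so that their separate values are uncertain. AT2G31790, which has no symbol in the reference table, had a log2 fold change of -0.08 ± 0.10, and the sulfotransferases SOT17 (AT1G18590) and SOT18 (AT1G74090) had 0.19 ± 0.13 and 0.12 ± 0.09.

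The upstream sequences of CYP83B1 and CYP83A1 are shown because these 2 paralogs act at the same step of different branches and differ in the test, and those of MYB51 and CYP81F2 because they had the largest rises among the regulators and the indole side-chain genes. Each is the 250 bases before the annotated gene start, 5′ to 3′ along the gene, read from the TAIR10.1 reference of RefSeq with its own annotation. Capitals mark matches on either strand to 3 motifs: the G-box CACGTG bound by MYC factors among others, the W-box core TTGAC of WRKY factors and the AC element ACCTAC of R2R3-MYB factors. No matches to different motifs overlap in these windows.
CYP83B1 (AT4G31500, chr4:15275405-15275654, minus strand): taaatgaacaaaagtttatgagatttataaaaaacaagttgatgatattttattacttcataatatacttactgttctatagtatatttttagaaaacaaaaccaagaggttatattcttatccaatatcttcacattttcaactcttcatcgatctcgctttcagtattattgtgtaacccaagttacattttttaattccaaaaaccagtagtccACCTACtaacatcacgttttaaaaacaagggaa
CYP83A1 (AT4G13770, chr4:7992430-7992679, minus strand): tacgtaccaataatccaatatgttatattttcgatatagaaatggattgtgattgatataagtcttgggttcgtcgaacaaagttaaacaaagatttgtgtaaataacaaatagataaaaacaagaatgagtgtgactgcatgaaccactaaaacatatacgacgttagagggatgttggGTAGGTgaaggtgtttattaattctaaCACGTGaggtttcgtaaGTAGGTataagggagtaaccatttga
MYB51 (AT1G18570, chr1:6389149-6389398, plus strand): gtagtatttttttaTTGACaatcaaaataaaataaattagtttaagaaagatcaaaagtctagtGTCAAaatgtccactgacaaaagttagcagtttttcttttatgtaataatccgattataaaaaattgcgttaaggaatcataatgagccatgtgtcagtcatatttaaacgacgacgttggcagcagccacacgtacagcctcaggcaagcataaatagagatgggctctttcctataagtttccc
CYP81F2 (AT5G57220, chr5:23187590-23187839, plus strand): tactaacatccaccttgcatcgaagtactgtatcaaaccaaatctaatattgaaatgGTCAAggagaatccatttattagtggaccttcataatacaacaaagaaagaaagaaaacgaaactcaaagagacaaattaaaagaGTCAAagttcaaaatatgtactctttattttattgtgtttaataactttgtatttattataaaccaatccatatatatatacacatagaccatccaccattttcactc

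The AC element was in 5 of 21 aliphatic windows (23.8%), in 1 of 14 indole windows (7.14%) and in 4.6% of the windows of all 27443 protein-coding nuclear genes, among which AOP2 is not counted. The 5 aliphatic genes are MYB28, BCAT4 (AT3G19710), CYP79F2, CYP83A1 and SOT17, none of which passed the expression test, and the indole gene is CYP83B1. CYP83A1 held 2 copies and a G-box. W-box cores were in 5 of 14 indole windows (35.7%), in 7 of 21 aliphatic windows (33.3%) and in 44.9% of all windows. MYB51 and CYP81F2 (AT5G57220) held 2 each, as did the aliphatic genes MYB76 and GS-OX2, the shared gene SUR1 and the breakdown gene ESP. The shared gene GGP1 held 3 and the transporter gene GTR1 held 4. Neither SUR1 nor ESP passed the expression test, and MYB76 was not tested. No indole window held a G-box, against 6.49% of all windows. A match is a description of the letters and not a binding site.

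Side-chain genes of the indole branch split into those that rose and those that did not pass. CYP81F2, which hydroxylates the indole ring at the start of 4-methoxy glucosinolate synthesis, had 8.97, 9.94 and 11.7 FPKM in 17ab replicates 1 to 3, against 3.85, 4 and 4.06 FPKM in WT replicates 1 to 3. This was the largest rise of the tested members, at 1.33 ± 0.16 on the log2 scale, at an adjusted p of 0.0001556 in edgeR. Its relative CYP81F1 (AT4G37430) had 9.80, 6.73 and 8.03 FPKM in 17ab and 8.90, 9.02 and 9.46 FPKM in WT, with a log2 fold change of -0.18 ± 0.15, the single tested indole member below 0. CYP81F4 (AT4G37410), which leads to 1-methoxy glucosinolate, had 27.0, 16.6 and 16.6 FPKM in 17ab and 9.03, 16.7 and 13.6 FPKM in WT, which overlap, and its log2 fold change of 0.59 ± 0.21 missed the threshold, at an adjusted p of 0.07808 in edgeR. CYP81F3 (AT4G37400) had 18 counts in all in 17ab and 12 in WT and was not tested.

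IGMT5 (AT1G76790), a methyltransferase of the 1-methoxy route, had 19.4, 16.2 and 20.1 FPKM in 17ab and 6.42, 13.2 and 12.01 FPKM in WT. WT replicate 1 was far below the other WT libraries, and the log2 fold change was 0.79 ± 0.19, at an adjusted p of 0.01598 in edgeR, a call lost without 17ab replicate 3. IGMT1 (AT1G21100) and IGMT2 (AT1G21120), methyltransferases that lie close together on chromosome 1, had log2 fold changes of 0.06 ± 0.13 and 0.93 ± 0.33, and neither passed the test. Their coding sequences are 92.5% identical and their reads were divided between genes in all 6 libraries. IGMT2 rests on 79.5 expected counts in 17ab and 40.5 in WT, so its separate value is uncertain.

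**Figure D3:**
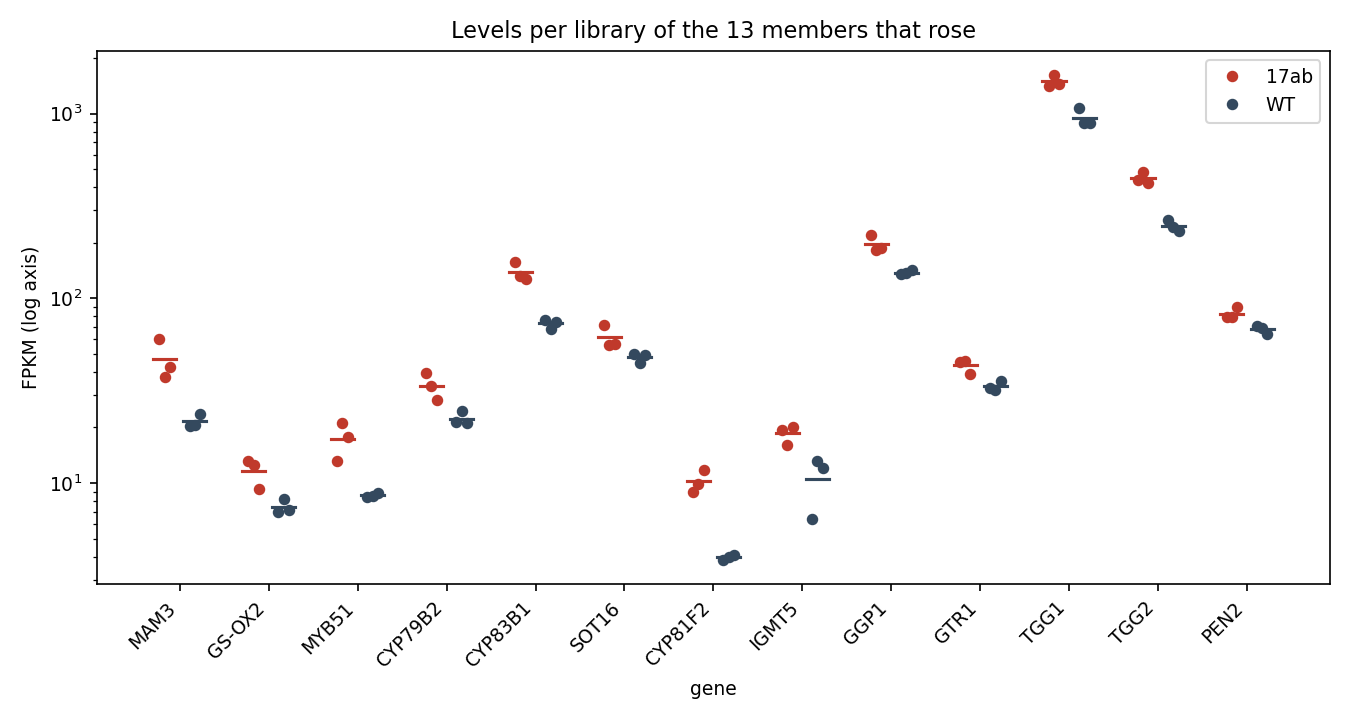
FPKM on a log axis of the 13 members that rose, with points for single libraries (17ab in red, left, and WT in dark blue, right) and lines for the mean of 3. In each gene the 3 values of 17ab lie above the 3 of WT, with the lowest levels in CYP81F2 and GS-OX2 and the highest in TGG1.

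Chain elongation genes of the aliphatic branch gave log2 fold changes between -0.20 and -0.04, apart from MAM3 (AT5G23020). MAM3, a methylthioalkylmalate synthase known for making long side chains, had 60.0, 37.6 and 42.5 FPKM in 17ab replicates 1 to 3, against 20.4, 20.6 and 23.7 FPKM in WT replicates 1 to 3. It rose by 1.09 ± 0.14 on the log2 scale, at an adjusted p of 0.0002913 in edgeR, and the groups did not overlap. MAM1 (AT5G23010), which lies 11144 bases from MAM3 in TAIR10.1 and makes short side chains, had 184.6, 186.4 and 186.4 FPKM in 17ab and 195.7, 197.6 and 214.5 FPKM in WT. Here every 17ab library was below every WT library, and the log2 fold change of -0.16 ± 0.06 missed the threshold, at an adjusted p of 0.1361 in edgeR. Their coding sequences are 84.2% identical, and all expected counts of both genes were whole numbers. BCAT4, the aminotransferase that opens the pathway, had a log2 fold change of -0.20 ± 0.08, at an adjusted p of 0.1021 in edgeR, with 151.0, 136.0 and 128.9 FPKM in 17ab and 157.0, 146.2 and 166.3 FPKM in WT. The plastid keto acid transporter BAT5 (AT4G12030) and the isomerase and dehydrogenase subunits IIL1 (AT4G13430) and IMD1 (AT5G14200) had log2 fold changes of -0.12 ± 0.11, -0.05 ± 0.07 and -0.04 ± 0.07.

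Of the aliphatic side-chain genes GS-OX2 (AT1G62540), which oxidises the sulfur of the side chain, had 13.2, 12.5 and 9.29 FPKM in 17ab and 6.93, 8.18 and 7.17 FPKM in WT. Its log2 fold change was 0.59 ± 0.15, at an adjusted p of 0.02105 in edgeR. The call was lost without WT replicate 1 or 3, without 17ab replicate 1 or 2 and with DESeq2, and reads were divided between genes in 4 libraries. The other tested family members, GS-OX1 (AT1G65860), GS-OX3 (AT1G62560), GS-OX4 (AT1G62570) and GS-OX5 (AT1G12140), had log2 fold changes from -0.07 to 0.27 and did not pass. AOP3 (AT4G03050) had 9 counts in all in 17ab and 10 in WT, and AOP2 (AT4G03060), annotated as a transcribed pseudogene in TAIR10.1, was listed in no library.

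Steps shared by the branches lay above 0, and 1 of the 3 genes passed. GGP1 (AT4G30530), a peptidase that trims the glutathione conjugate, had 219.6, 182.3 and 186.5 FPKM in 17ab replicates 1 to 3, against 134.9, 136.6 and 142.3 FPKM in WT replicates 1 to 3. The rise was 0.48 ± 0.08 on the log2 scale, at an adjusted p of 0.00132 in edgeR, with the groups well apart. SUR1 (AT2G20610), the C-S lyase, had 82.4, 71.1 and 65.22 FPKM in 17ab and 63.5, 58.1 and 65.16 FPKM in WT, a log2 fold change of 0.19 ± 0.09. UGT74B1 (AT1G24100), the glucosyltransferase, had 71.9, 51.6 and 49.9 FPKM in 17ab and 47.1, 42.2 and 48.8 FPKM in WT, a log2 fold change of 0.30 ± 0.12. In both genes the groups were apart by little, and neither passed the test, at adjusted p values of 0.1769 and 0.1192 in edgeR.

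Of the transporters that load glucosinolates into the phloem, GTR1 (AT3G47960) rose, with 45.3, 46.0 and 38.8 FPKM in 17ab and 32.6, 32.1 and 35.6 FPKM in WT. Its log2 fold change was 0.35 ± 0.08, at an adjusted p of 0.01317 in edgeR, and the call was lost without WT replicate 2 and with the offset for GC content and length combined with the replicate block. GTR2 (AT5G62680) had 41.97, 30.8 and 33.6 FPKM in 17ab and 32.0, 32.5 and 32.1 FPKM in WT, with a log2 fold change of 0.11 ± 0.10, at an adjusted p of 0.5144 in edgeR, and 17ab replicate 2 lay below all WT libraries. The 4 phloem markers fixed for the comparison (SUC2, APL, AHA3 and SEOR1) had log2 fold changes from 0.01 to 0.21, none past the threshold, and their summed level was 149.4 to 154.0 FPKM in 17ab and 141.9 to 144.4 FPKM in WT. Their part in the GTR1 result was not tested.

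The myrosinases TGG1 and TGG2 rose, PEN2 passed narrowly, and the specifier proteins did not pass the test. TGG1 (AT5G26000), by FPKM the most abundant of the 47 genes in each library, had 1411, 1619 and 1455 FPKM in 17ab replicates 1 to 3, against 1073, 886.0 and 890.9 FPKM in WT replicates 1 to 3. The groups did not overlap, and the log2 fold change was 0.63 ± 0.09, at an adjusted p of 0.0007488 in edgeR. TGG2 (AT5G25980) had 436.1, 486.0 and 422.9 FPKM in 17ab and 266.6, 242.2 and 231.6 FPKM in WT, and it rose by 0.83 ± 0.08 on the log2 scale, at an adjusted p of 4.152e-05 in edgeR. The coding sequences of TGG1 and TGG2 are 83.0% identical, the genes lie 3674 bases apart, and reads were divided between genes for both in all 6 libraries. PEN2 (AT2G44490), an atypical myrosinase that acts on indole glucosinolates in living cells, had 79.2, 79.5 and 89.3 FPKM in 17ab and 71.0, 69.4 and 64.4 FPKM in WT. Its log2 fold change of 0.25 ± 0.08 passed narrowly, at an adjusted p of 0.04673 in edgeR. The PEN2 call was lost without WT replicate 1, 2 or 3, without 17ab replicate 2 or 3, with DESeq2, with no filter on low counts, with the replicate number as a block and with an offset for GC content and length, with or without that block.

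Among the specifiers NSP1 (AT3G16400) averaged 244.7 ± 15.2 FPKM in 17ab and 216.3 ± 12.9 FPKM in WT, NSP5 (AT5G48180) 77.7 ± 6.82 FPKM in 17ab and 67.4 ± 1.82 FPKM in WT, and ESP (AT1G54040), the epithiospecifier, 6.29 ± 1.03 FPKM in 17ab and 4.87 ± 0.930 FPKM in WT (n = 3 each). Their log2 fold changes were 0.15 ± 0.07, 0.18 ± 0.07 and 0.36 ± 0.21. NSP1 and NSP5 had no overlap between the groups, and ESP did.

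TGG1 and TGG2 are known from guard cells and from myrosin cells along the veins. Of 5 guard cell markers 1 fell and 4 did not pass. ICE1, a transcription factor of the stomatal lineage, fell by 0.30 ± 0.08 on the log2 scale, at an adjusted p of 0.0167 in edgeR. FAMA, which specifies guard and myrosin cells, had a log2 fold change of -0.01. KAT1, MYB60 and SLAC1 lay above 0, at 0.13 ± 0.13, 0.27 ± 0.13 and 0.44 ± 0.26. The summed level of the 5 was 73.3 to 80.7 FPKM in 17ab and 75.8 to 77.6 FPKM in WT. Of the 10 root markers 5 were tested and 2 rose, AKT1 by 0.90 ± 0.11 and PHO1 by 0.53 ± 0.13, at adjusted p values of 0.0002546 and 0.01815 in edgeR. SHR, SCR and ESB1 had log2 fold changes of 0.07, -0.03 and -0.07 and did not pass. The 10 root markers summed to 54.0 to 59.3 FPKM in 17ab and 42.9 to 48.5 FPKM in WT. Most of that difference lay in AKT1, with means of 9.55 FPKM in 17ab and 5.0 FPKM in WT, and PHO1, with 14.2 FPKM in 17ab and 9.59 FPKM in WT. Among the root markers not tested, CASP1, MYB36 and PLT2 had 22, 22 and 6 counts in all in 17ab and 8, 11 and 1 in WT. PLT1 and WOX5 had 1 and 2 counts in all in 17ab and 2 and 5 in WT, and were at 0 in 2 of 3 libraries of 17ab. The 8 leaf mesophyll markers summed to 20969 to 22946 FPKM in 17ab and 21833 to 26404 FPKM in WT, and none passed the test. The part of the root markers in the indole and myrosinase results was not tested.

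**Figure D4:**
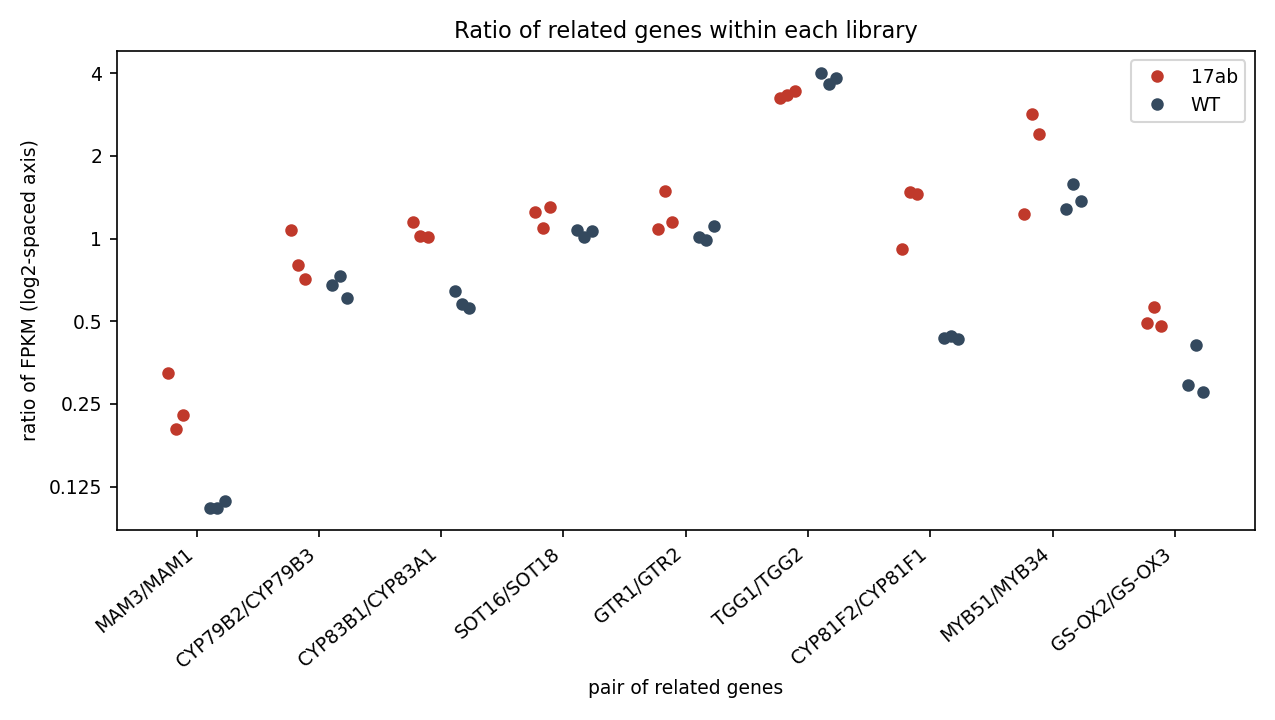
Ratio of FPKM between the genes of 9 pairs in each library, on a log2-spaced axis, with 17ab in red (left) and WT in dark blue (right). MAM3 to MAM1, CYP83B1 to CYP83A1 and CYP81F2 to CYP81F1 are higher in each 17ab library than in any WT library, and TGG1 to TGG2 is lower.

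Ratios between related genes of the same library do not depend on how libraries are scaled. MAM3 stood at 0.325, 0.202 and 0.228 of the level of MAM1 in 17ab replicates 1 to 3, against 0.104, 0.104 and 0.111 in WT replicates 1 to 3. CYP83B1 was at 1.15, 1.02 and 1.01 times CYP83A1 in 17ab and at 0.643, 0.578 and 0.558 times in WT, so that the indole enzyme was above its aliphatic paralog in each 17ab library and below it in each WT library. CYP81F2 was at 0.915, 1.48 and 1.46 times CYP81F1 in 17ab and at 0.433, 0.444 and 0.429 times in WT. TGG1 stood at 3.24, 3.33 and 3.44 times TGG2 in 17ab and at 4.02, 3.66 and 3.85 times in WT, the 1 pair of the 9 whose ratio was lower in every 17ab library, with reads of both genes divided. SOT16 was at 1.25, 1.1 and 1.3 times SOT18 in 17ab and at 1.08, 1.01 and 1.06 times in WT, with the groups apart by little. GS-OX2 was at 0.493, 0.563 and 0.481 times GS-OX3 in 17ab and at 0.292, 0.409 and 0.276 times in WT, also without overlap. Groups overlapped for CYP79B2 over CYP79B3, GTR1 over GTR2 and MYB51 over MYB34. The pairs were chosen with the values known, and an exact permutation test of 3 against 3 libraries cannot go below p = 0.1, so the ratios are given as a description.

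Among the 17ab libraries replicate 1 held the highest level for 28 of the 46 listed members, including 15 of 21 aliphatic and 7 of 14 indole genes. The indole sum of that library, at 31.4% of its aliphatic sum, was close to the 29.8% and 30.6% of the other 17ab libraries.

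Beyond the 47 members, 37 other genes of the pathway were listed with earlier results of these data known, so their counts are no independent support. Of the 30 tested 12 rose and 0 fell, beside 7.57% risen and 6.51% fallen over all genes tested. Of the indole list 6 of 6 tested rose: the glutathione S-transferases GSTF9 and GSTF10, the methyltransferases IGMT3 and IGMT4, the exporter PEN3 and the phytochelatin synthase PCS1, the last pair known to act with PEN2. GSTF10 averaged 352.0 ± 31.4 FPKM in 17ab and 222.1 ± 0.882 FPKM in WT (n = 3 each), a log2 fold change of 0.64 ± 0.07, at an adjusted p of 0.0001241 in edgeR. PEN3 rose by 0.67 ± 0.07 and IGMT3, with reads divided between genes, by 1.17 ± 0.36 on the log2 scale, at adjusted p values of 5.581e-05 and 0.04396 in edgeR. None of 8 tested genes of the aliphatic list passed, with log2 fold changes from -0.22 to 0.02 and a median of -0.19. In 3 of the 8 every 17ab library was below every WT library, as in 12.9% of all genes tested.

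Of 11 tested genes that serve both branches 3 rose. SDI1, a sulfur deficiency protein known to repress aliphatic glucosinolate synthesis, had 31.6, 20.9 and 19.6 FPKM in 17ab and 4.85, 6.55 and 5.69 FPKM in WT, a log2 fold change of 2.05 ± 0.20, at an adjusted p of 3.452e-05 in edgeR. MYC2, a jasmonate-responsive transcription factor that acts with the MYB regulators, rose by 0.46 ± 0.11 and its relative MYC3 by 0.25 ± 0.08, at adjusted p values of 0.01221 and 0.04876 in edgeR. SLIM1, a regulator of the sulfur deficiency response, had a log2 fold change of 0.04 and did not pass. AT1G04770, listed here beside SDI1 and with no symbol in the reference table, was the single gene of the 11 below 0, with a log2 fold change of -0.20 ± 0.11 that missed the threshold. In the breakdown list 3 of 5 tested genes rose, among them the myrosinase-binding proteins MBP1 and MBP2 by 1.13 ± 0.30 and 1.1 ± 0.16 on the log2 scale, with reads divided between genes in all 6 libraries.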

How the data were processed

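Each deposited table lists genes above 0 in 1 library, with expected counts and FPKM values as the authors deposited them, per the file headers. An unlisted gene was taken as 0. STAR 2.4.0, HTSeq 0.6.0, the build TAIR10 and DESeq2 appear in the submitters' processing notes without a role. The program that made the expected counts and the use of strand are not given in the sources used here. Between 91.35% and 91.83% of listed counts were whole (tolerance 1e-06). The others are fractions, as where reads are divided between genes, and 11 of the 46 listed members had such counts.

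Expected counts were rounded and tested with edgeR 4.0.16 (R 4.3.3): quasi-likelihood test, TMM normalization, default expression filter, genotype as the single term, Benjamini-Hochberg adjustment over 17854 genes, threshold 0.05. Dividing the size of the log2 fold change by the root of the F statistic gave the SE. The fit was first tested on simulated data with known changes. A p-value measures the spread between these libraries, which may be technical, since the labels name no separate cultures. No libraries were duplicates (chi-square per degree of freedom of 2.47 or more). Floors cover counting error only.

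Members, branches, lists, pairs and motifs were chosen with earlier results of these data known. All 47 members could be named, with values per library for the MYB regulators and for each member past the threshold. Of each list of other genes up to 2 largest rises and falls were named by rule, and further genes after their values were seen. Upstream and coding sequences came from RefSeq's TAIR10.1 with its own annotation, where all 47 members were found by gene ID. The tested genes were refitted with DESeq2 size factors, with no filter, with a minimum of 5 CPM in 3 libraries, with a block for the replicate number and without each library in turn. DESeq2 1.42.0 was also run, as was limma-trend (limma 3.58.1) with a pseudocount of 1 or 0.1 on the log2 FPKM scale, over genes that reached 1 FPKM in 3 libraries. A loess offset (span 0.5) for GC content and length was fitted with and without the block.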

Additional observations from a re-analysis of the deposited data

How the results depend on the processing

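Over 15 alternatives 10 to 13 members rose and 0 fell. In the same fits 4.29% to 8.21% of all genes tested rose and 3.54% to 7.74% fell. Of the 13 calls 8 held in every alternative: MAM3, MYB51, CYP79B2, CYP83B1, CYP81F2, GGP1, TGG1 and TGG2. The calls of SOT16, PEN2, GS-OX2, IGMT5 and GTR1 were each lost in at least 1, and the cause was not tested. With 1 library left out, the risen members numbered 10 to 13, the risen indole members 5 to 7 and the risen aliphatic members 1 to 2. Of all genes tested 4.91% to 6.32% rose in those fits. The indole median log2 fold change then ran from 0.382 to 0.708 and the aliphatic median from -0.014 to 0.064. DESeq2 gave 1 risen aliphatic member, MAM3. With core synthesis and chain elongation genes only, the medians were 0.45 for the indole and 0.001 for the aliphatic branch. The GC and length offset gave 0.54 and -0.05, in a fit where the median of all genes was -0.03. The replicate block gave 12 risen members, without PEN2, and medians of 0.57 and 0.04. Same-numbered libraries did not deviate together (correlations of -0.003, -0.108 and -0.046). With 3 libraries per genotype such values cannot exclude a pairing of small effect, and the labels do not say whether the numbers pair libraries. CYP81F4 also rose with no filter and without WT replicate 2, and IGMT2 and CYP79B3 rose without 17ab replicate 1. At 3 counts per library MYB122, AOP3 and AOP2 cannot be compared at this depth.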
